A study of Caenorhabditis elegans with 2 samples.

Results

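Of the reproducible (optimal) LIN-39 peaks of C. elegans L1 larvae on the ce11 build, 237 lay on the X chromosome (15.9%) and the other 1251 on the autosomes. Members were chosen by chromosome alone, as every optimal peak on X, whatever its strength or place. The peaks come from chromatin immunoprecipitation and sequencing (ChIP-seq) of whole animals in 1 group with 2 biological replicates. All animals were of strain OP18, genotype unc-119(ed3) III with the integrated transgene wgIs18, which carries eGFP-tagged lin-39. They were mixed-sex L1 larvae, the first larval stage, of unknown age. The labels name lin-39 in the antibody field and the eGFP fusion in the description. The sources used here give neither the promoter nor the copy number of the transgene, and whole larvae mix all cell types, so no peak can be tied to one of them. There was no second condition, so each comparison sets X peaks against autosomal peaks of the same list.

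LIN-39 is the mid-body Hox transcription factor of C. elegans, known for its roles in the vulva, in motor neurons of the ventral cord and in neuroblast migration. Hox proteins recognise short AT-rich sites, and with PBC cofactors they recognise a longer composite site. The X chromosome is the sex chromosome: hermaphrodites have a pair and males have a single copy. In hermaphrodites a condensin-containing dosage compensation complex binds both copies and lowers their transcription. It is recruited at dispersed sites that carry a GC-rich motif enriched on X, whose core is GCGCAGGG.

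That core was found at many of the strongest X peaks. It lay within 100 bp of the summit, on either strand, in 14 of the 237 X peaks (5.91%, exact binomial 95% interval 3.27 to 9.71%) and in 0 of the 1251 autosomal peaks (upper limit of the interval 0.294%). The shares differed by 5.91 percentage points (two-sided Fisher's exact test, adjusted p = 1.94e-11). Of chromosome windows of the same length (201 bp), 0.0851% on X and 0.0553% on the autosomes held the core on either strand, and it was in 0 of the windows 1000 bp beside the X summits. Near matches were not confined to X. The longer core CGCGCAGGG with at most 1 mismatch lay near 24 X summits (10.1%) and 28 autosomal ones (2.24%) (two-sided Fisher's exact test, adjusted p = 6.34e-07). It was in 0.551% of the 201-bp windows of X and 0.498% of those of the autosomes. The sequences of all 14 peaks with the exact core follow because they carry the difference in exact matches. They are given 5′ to 3′ from the WBcel235 (ce11) genome of RefSeq, oriented so that the core, in capitals, reads forward. Their order is that of pooled peak rank, where rank 1 is the strongest optimal peak.
peak ranked 1, chrX:14525888-14525919, minus strand: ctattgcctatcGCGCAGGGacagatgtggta
peak ranked 2, chrX:11094214-11094245, minus strand: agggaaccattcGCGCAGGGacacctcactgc
peak ranked 4, chrX:2997111-2997142, minus strand: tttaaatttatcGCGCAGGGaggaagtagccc
peak ranked 11, chrX:16682160-16682191, minus strand: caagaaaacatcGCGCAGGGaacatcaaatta
peak ranked 12, chrX:4209254-4209285, minus strand: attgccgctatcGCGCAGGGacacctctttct
peak ranked 14, chrX:8036389-8036420, minus strand: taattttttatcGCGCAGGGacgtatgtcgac
peak ranked 16, chrX:806662-806693, plus strand: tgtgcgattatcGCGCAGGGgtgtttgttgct
peak ranked 20, chrX:6296536-6296567, plus strand: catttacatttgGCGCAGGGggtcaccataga
peak ranked 58, chrX:13514546-13514577, plus strand: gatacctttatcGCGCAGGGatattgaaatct
peak ranked 73, chrX:5429578-5429609, plus strand: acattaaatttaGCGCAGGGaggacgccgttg
peak ranked 103, chrX:1345044-1345075, plus strand: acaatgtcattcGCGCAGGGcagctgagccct
peak ranked 201, chrX:2364887-2364918, minus strand: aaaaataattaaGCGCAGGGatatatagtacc
peak ranked 483, chrX:17181353-17181384, minus strand: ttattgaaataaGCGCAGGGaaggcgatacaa
peak ranked 560, chrX:4395603-4395634, plus strand: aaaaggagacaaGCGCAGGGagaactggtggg

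The bases just beside the core were also alike. Among the 14 peaks, the base 2 before the core was T in 11, the base 1 before it was C in 9, and the base after it was A in 11. The most frequent base at each position gave tcGCGCAGGGa, with the core in capitals. All 11 letters were matched by 7 peaks, 10 letters by 3 peaks and 9 letters by 4 peaks. The core lay a median of 30 bp from the summit and at most 83 bp away, and in 7 of the 14 peaks it lay within 25 bp. In 4 of the peaks, those ranked 2, 14, 16 and 20, the 201 bp held 2 matches.

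Of the 14 peaks with the core, 11 lay outside promoter windows and 3 inside one, and 128 of all 237 X peaks lay outside them. A promoter window here runs from 2000 bp upstream to 500 bp downstream of the start (outer end) of a protein-coding gene. The 3 genes with such a peak were nspc-17, of a nematode-specific peptide family (745 bp upstream), F20B6.9 (1796 bp upstream) and ins-39, which encodes an insulin-like peptide (646 bp upstream). Outside the windows, the peak ranked 14 lay 4915 bp upstream of xol-1, the switch gene of sex determination and dosage compensation. The peak ranked 20 lay in an intron of mom-1, which encodes a Porcupine-type protein of Wnt secretion. That ranked 73 lay in a coding exon of pks-1, a polyketide synthase gene.

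Peaks with the core were strong in both replicates. Signal is the submitters' own peak score, which has no stated scale and serves here to order peaks within a list. The 14 peaks had a median pooled signal of 372.0 (range 95.2 to 607.5), and the other 223 X peaks had a median of 72.6. The peak near nspc-17 had a signal of 387.8 in replicate 1 and 217.7 in replicate 2, where it ranked 1 and 4 of 30000 regions. The peak 4003 bp from the start of W02H3.3 had 341.1 and 231.3 and ranked 2 and 1. The peak in an intron of Y41G9A.17 had 322.0 and 178.6 and ranked 4 and 9. Over the 14 peaks the lowest rank was 743 in replicate 1, at the peak ranked 560, and 664 in replicate 2, at the peak ranked 483. These signals are a description and were not tested.

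**Figure D1:**
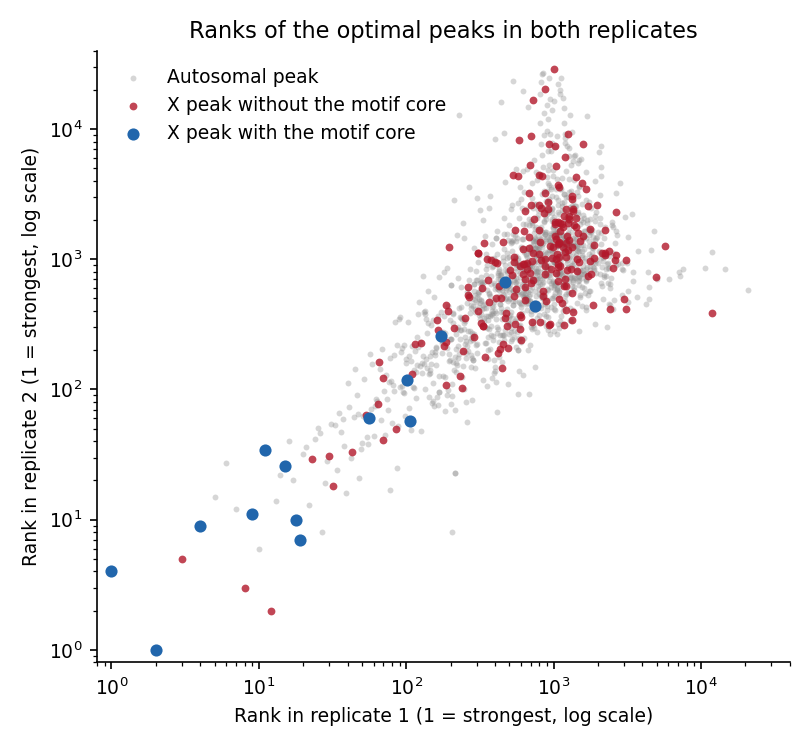
Rank of each optimal peak among the 30000 regions of replicate 1 (horizontal, log scale) and replicate 2 (vertical, log scale), where 1 is the strongest; grey points are autosomal peaks, red points X peaks without GCGCAGGG and blue points X peaks with it. The blue points lie at ranks 1 to 743 in replicate 1 and 1 to 664 in replicate 2, while red points reach rank 11782 in replicate 1 and rank 29003 in replicate 2.

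Below the optimal set the core was rare. Among the 271 X regions ranked 1489 to 3000 in the pooled list, 1 held the core within 100 bp of its summit (0.369%), against 2 of 1241 autosomal regions (0.161%). The X chromosome holds 81 matches to the core in all, and 19 of them (23.5%) lay inside an optimal peak. The autosomes hold 233 matches, of which 2 (0.858%) lay inside an optimal peak, both more than 100 bp from the summit. No test was run on these matches.

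Among the 20 strongest optimal peaks, 11 were on X, and 8 of these 11 held the core. X peaks made up 6 of the 10 strongest, 14 of the 30 strongest, 15 of the 50 strongest and 23 of the 100 strongest, against the 15.9% of the whole set. The replicates gave similar counts taken one at a time. On X were 6 of the 10 strongest regions of replicate 1 and 8 of the 10 strongest of replicate 2, and 22 and 21 of their 100 strongest. Of the 15 strongest X peaks, with pooled signals from 302.4 to 607.5, 11 lay outside promoter windows, as did 128 of all 237 X peaks.

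Strong X peaks without an exact core were of several kinds. The peaks ranked 25 and 27 each matched 10 of the 11 letters of tcGCGCAGGGa, while the best match in the peaks ranked 3, 6 and 29 had 7 letters and that in the peak ranked 5 had 8. Over all X peaks without the exact core the median best match was 7 letters, and it was also 7 over the autosomal peaks. The closest matches were more frequent on X. At least 10 letters were matched by 5 of the 223 X peaks without the core (2.24%) and 3 of the 1251 autosomal peaks (0.24%). Among the 149 strongest peaks, 3 of 16 such X peaks and 2 of 122 autosomal peaks did so. At least 9 letters were matched by similar shares, 9 of the 223 and 50 of the 1251. These counts were not tested. The best matches of the peaks ranked 3, 5, 25 and 27 are shown for comparison with the exact cores above, with the 11 letters aligned to the string in capitals.
peak ranked 3, chrX:13700849-13700881, minus strand: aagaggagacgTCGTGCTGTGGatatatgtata
peak ranked 5, chrX:9465870-9465902, plus strand: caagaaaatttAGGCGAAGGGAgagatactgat
peak ranked 25, chrX:11937445-11937477, minus strand: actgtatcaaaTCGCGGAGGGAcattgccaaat
peak ranked 27, chrX:16056638-16056670, minus strand: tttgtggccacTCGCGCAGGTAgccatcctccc

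The peak ranked 3, 6094 bp from the start of K02D3.1, had a signal of 331.8 in replicate 1 and 212.1 in replicate 2 (ranks 3 and 5). The peak ranked 5, 2538 bp from ZK899.6, had 247.8 and 229.2 (ranks 12 and 2), and that ranked 6, 1755 bp from F19H6.5, had 270.4 and 218.3 (ranks 8 and 3). All 3 lay in intergenic sequence, meaning outside protein-coding genes, and stood among the 12 strongest regions of both replicates. The peaks ranked 25 and 27 lay 1394 bp downstream of the start of F55G7.5 and 1062 bp downstream of that of T27A8.7, in intergenic sequence. Their ranks were 32 and 18 for the first and 23 and 29 for the second. Among X peaks without the core, the strongest in a promoter window were those ranked 29 and 39. The first lay 821 bp upstream of ent-2, an equilibrative nucleoside transporter gene (ranks 30 and 31), and the other 12 bp upstream of hst-2, which encodes a heparan sulfate sulfotransferase (ranks 43 and 33).

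The remaining peaks among these 15 all held the core. Peak 11 lay 2580 bp from the start of F22H10.2 (signal 437.3; ranks 9 and 11), peak 12 upstream of F20B6.9 (409.0; ranks 19 and 7), and peak 14 upstream of xol-1 (397.4; ranks 18 and 10). Peak 16 lay 3911 bp from the start of gtr-1 (382.2; ranks 11 and 34) and peak 20 in mom-1 (361.9; ranks 15 and 26). To show the setting, the 70 bases on each side of the summit are printed for the peak ranked 2, which holds the core in 2 places as CCCTGCGC on the plus strand, in capitals. The same stretch of the hst-2 peak, which has no match, stands beside it.
peak ranked 2, chrX:11094113-11094253, plus strand: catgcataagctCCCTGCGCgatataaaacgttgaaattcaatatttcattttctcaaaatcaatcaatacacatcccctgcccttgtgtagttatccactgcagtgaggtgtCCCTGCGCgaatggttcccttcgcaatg
peak ranked 39, chrX:11207097-11207237, plus strand: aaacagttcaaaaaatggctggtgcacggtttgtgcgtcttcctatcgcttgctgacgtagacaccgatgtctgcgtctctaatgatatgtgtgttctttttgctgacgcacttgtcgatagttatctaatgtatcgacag

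Over all 237 X peaks, those with the core included, the pooled signal had a median of 75.9 (range 50.03 to 607.5), against 82.1 on the autosomes (maximum 471.5), and the median rank was 820 against 728. In replicate 1 the median rank was 798 on X and 735 on the autosomes, and in replicate 2 it was 882 and 733. Of the X peaks, 106 (44.7%) were in the stronger part of the optimal set, above its median signal, against 638 of the autosomal peaks (51.0%), a difference of -6.27 percentage points that missed the threshold (two-sided Fisher's exact test, adjusted p = 0.152). All 14 peaks with the core were in the stronger part. Among the 149 strongest were 27 X peaks (11.4%) and 122 autosomal ones (9.75%), which did not differ past the threshold (Fisher's exact test, adjusted p = 0.574), and 11 of these 27 held the core.

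**Figure D2:**
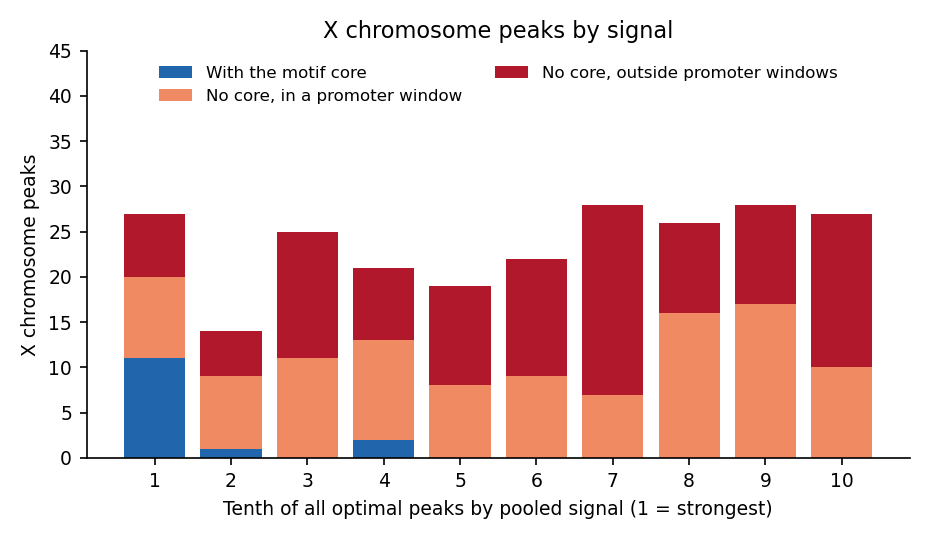
Number of X peaks (vertical) in each of 10 equal groups of all optimal peaks ordered by pooled signal (horizontal, group 1 strongest); blue marks peaks with GCGCAGGG, orange those without it in a promoter window and red those without it outside promoter windows. The first group holds 27 X peaks, 11 of them with the core, the second 14, and each of the 4 weakest groups 26 to 28.

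The replicates ranked the strong X peaks alike and some of the weak ones very differently. Spearman's rho between the signals of replicates 1 and 2 was 0.598 over the 236 X peaks found in both lists and 0.633 over 1244 autosomal peaks. These correlations run across peaks chosen on the pooled data and are descriptions. Of the X peaks, 152 (64.1%) overlapped the strongest regions of both replicates, taking as many regions per replicate as there were optimal peaks, against 851 autosomal peaks (68.0%), and the shares did not differ past the threshold (two-sided Fisher's exact test, adjusted p = 0.343). The replicate ranks were within 2-fold of each other for 143 X peaks (60.6%), against 63.2% of autosomal peaks.

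The 5 X peaks whose ranks differed most were weak in the pooled list. The peak 286 bp upstream of T14G11.1 ranked 11782 in replicate 1 and 389 in replicate 2. The other 4 were the reverse: the peak nearest ZK470.4 ranked 1007 in replicate 1 and 29003 in replicate 2, that nearest dot-1.4 880 and 20478, that nearest T01B6.1 719 and 16592, and that 737 bp upstream of fbxa-141 580 and 8204. Their pooled signals were 50.05 to 68.99. One X peak had no overlapping region in replicate 1: it lay 732 bp upstream of ftt-2, a 14-3-3 protein gene, with pooled signal 124.0 and rank 189 in replicate 2. A neighbouring optimal peak, 947 bp upstream of ftt-2, was matched to the same region of replicate 2 and ranked 418 in replicate 1. Replicate 1 thus had a region beside this site.

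X peaks were further from gene starts than autosomal peaks. A promoter window held 109 of the 237 X summits (46.0%, interval 39.5 to 52.6%) and 940 of the 1251 autosomal summits (75.1%, interval 72.6 to 77.5%). The difference was -29.1 percentage points, with an odds ratio of 0.282 (two-sided Fisher's exact test, adjusted p = 4.51e-17). The 5 autosomes ranged from 70.9 to 77.4%, so X lay below each of them. Promoter windows cover 33.9% of X and 41.2% of the autosomes, so summits fell in them 1.36 times as often as their length on X and 1.83 times on the autosomes. With windows that start 5000 bp upstream the shares were 68.4% and 87.0%, a difference of -18.6 points that still passed (Fisher's exact test, adjusted p = 1.22e-10). With windows at the starts of all transcripts, not only the outer end of each gene, the shares were 54.0% and 80.8%. That difference was -26.8 points (Fisher's exact test, adjusted p = 2.34e-16). Peaks, not animals, are the units of these tests. Neighbouring peaks are not independent, and the intervals cover the sampling of peaks alone, since the depth of the libraries is unknown.

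Summits in the windows of more than 1 gene, such as those between divergent starts, were also fewer on X. There were 22 of these on X (9.28%) and 496 on the autosomes (39.6%), a difference of -30.4 points (two-sided Fisher's exact test, adjusted p = 2.87e-21), and the autosomes ranged from 35.2 to 41.9%. Among summits in a window, 20.2% on X and 52.8% on the autosomes were in more than 1. X carries fewer protein-coding genes for its length, 154 per Mb against 209 on the autosomes. It held fewer peaks per Mb (13.4 against 15.2) and more peaks per 1000 genes (86.8 against 72.6). The part of gene spacing in the difference was not tested.

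**Figure D3:**
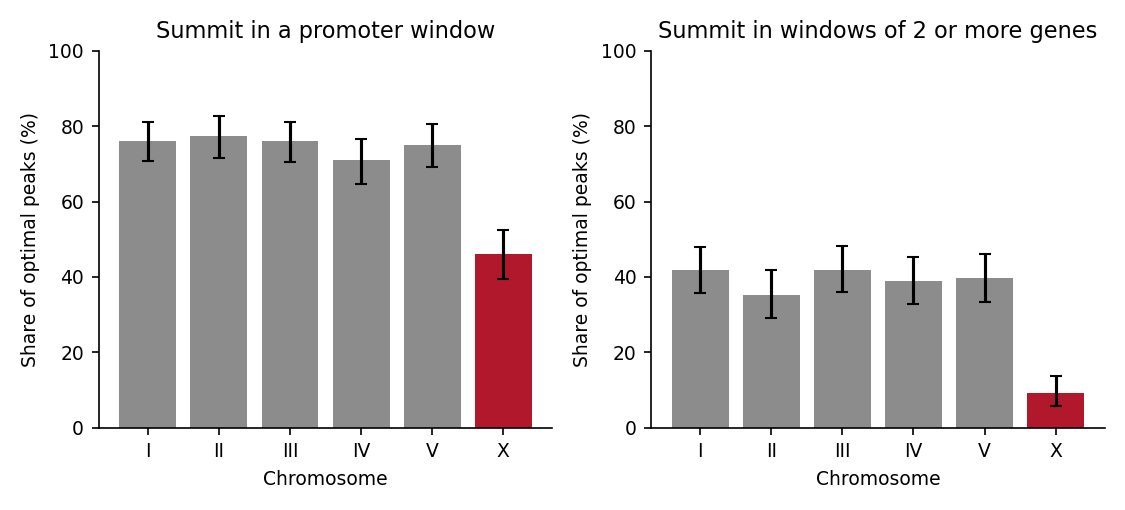
Share of optimal peaks (%, bars from 0) on each chromosome whose summit lies in a promoter window (left) or in the windows of 2 or more protein-coding genes (right); error bars are exact binomial 95% intervals, and X is red. X stands at 46.0% and 9.28%, below the autosomes at 70.9 to 77.4% and 35.2 to 41.9%.

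In distance, the X summits had a median of 1351 bp to the nearest protein-coding gene start (quartiles 296 and 3435 bp), and the autosomal summits a median of 310 bp (quartiles 143 and 1334 bp). On X, 105 summits (44.3%) were more than 2000 bp away and 31 (13.1%) more than 5000 bp, against 20.1% and 6.79% on the autosomes. Where a summit did lie in a window, its place was much the same on both: 102 of 109 X summits (93.6%) and 93.5% of the autosomal ones were upstream of the start, at median positions of -258 bp and -187 bp. Signal moved with place on the autosomes but hardly on X. Median pooled signals inside and outside windows were 75.9 and 76.2 on X, and 85.2 and 72.1 on the autosomes. This contrast was not tested.

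**Figure D4:**
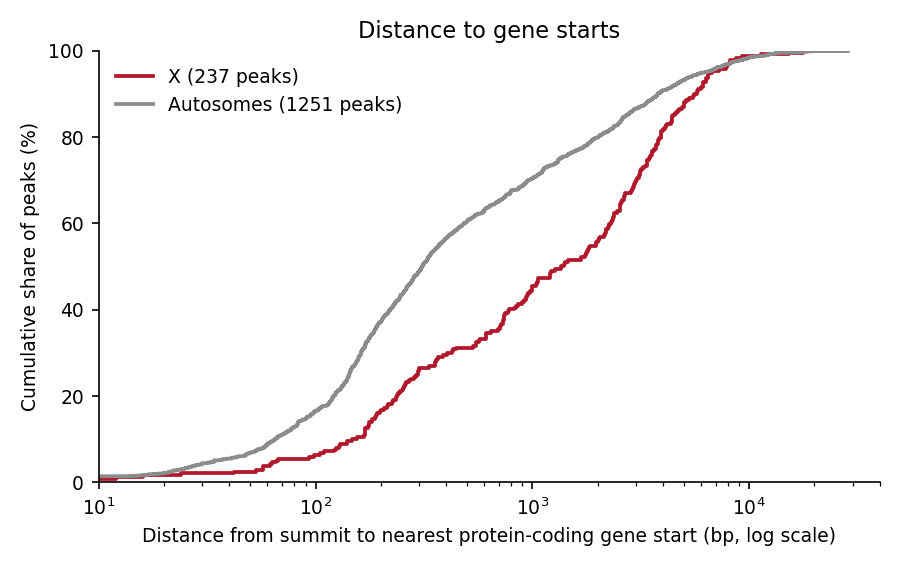
Cumulative share of optimal peaks (vertical, %) by distance from the summit to the nearest protein-coding gene start (horizontal, bp, log scale), for 237 X peaks (red) and 1251 autosomal peaks (grey). The red line stays to the right of the grey one over most of the range, with medians of 1351 and 310 bp.

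Feature classes were closer than distances to starts. Intergenic sequence held 178 X summits (75.1%) and 74.3% of the autosomal summits, and introns held 50 (21.1%) and 19.7%. Neither share differed past the threshold (two-sided Fisher's exact tests, adjusted p = 0.808 and 0.717). The other 9 X summits were in 5′ UTRs (4), 3′ UTRs (2) and coding exons (3). A p above the threshold does not show that shares were equal: the intervals for X ran from 69.1 to 80.5% for intergenic sequence and from 16.1 to 26.8% for introns.

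Of peaks in introns, those in Y41G9A.17 and mom-1 were the strongest, followed by one in sir-2.2, a sirtuin gene (signal 262.5; ranks 69 and 41 in replicates 1 and 2). The intron peak of mdl-1, which encodes a Mad-like bHLH transcription factor, had a signal of 168.0 (ranks 232 and 128). Introns of sma-9, a Schnurri homologue of BMP-like signalling, held peaks of 166.7 (ranks 238 and 102) and 125.3 (ranks 491 and 208). An intron of rme-4, an endocytosis gene, held a peak of 123.1 (ranks 308 and 404). In lin-2, whose product helps to localise the EGF receptor in vulval precursor cells, an intron peak 9261 bp from the gene start was near the lower edge at 51.3 (ranks 1025 and 7471). The coding exon peaks were those in pks-1 (235.0), dyc-1, a gene of the dystrophin-associated complex of muscle (67.7), and F10D7.5 (53.3).

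In all, 105 X-linked protein-coding genes were assigned a peak, as the nearest start whose window holds the summit, and 4 of them had 2 peaks. This is 3.84% of the 2731 protein-coding genes of X, against 5.34% on the autosomes and a background of 5.14% of all 19973 genes. Of the 5249 X regions in the pooled ranked list, 4.52% were optimal peaks, against 4.96% of all 30000 regions. The 20 genes with the strongest peaks had signals from 138.4 to 607.5. They were led by nspc-17, F20B6.9, ent-2 and hst-2, described above, and by fbxb-58 (261.1, 980 bp upstream), an F-box gene.

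Among the next genes of the 20, the large-subunit ribosomal protein gene rpl-11.2 had a peak 360 bp upstream with signal 246.7, ranked 64 in replicate 1 and 78 in replicate 2. The peak 290 bp upstream of puf-9, a Pumilio-type RNA-binding protein gene, had 237.7 (ranks 85 and 50). The exocyst gene sec-3 had 181.3 (182 bp upstream; ranks 114 and 224), and epg-7, an autophagy gene, 161.4 (170 bp upstream; ranks 180 and 215). Peaks also lay at epn-1, which encodes the endocytic protein epsin (146.3; ranks 212 and 296), and at ppk-3, a PIKfyve-type lipid kinase gene (138.4; ranks 286 and 254). The ppk-3 summit also lay in the windows of F11C1.4 and F11C1.10.

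The 20 genes also held ncs-3, of the neuronal calcium sensor family (219.0, with the summit 5 bp inside the 5′ UTR; ranks 70 and 123), ins-39 (203.2; ranks 101 and 119) and mdl-1 (145.4, 1216 bp upstream; ranks 344 and 179). The remaining members were C14A11.9 (206.6), serp-1.1 (188.9), M02F4.2 (162.8), gfi-3 (153.1), F02C12.3 (152.8) and F17E5.2 (146.3). In each of these 20 peaks the region ranked within the 403 strongest of both replicates.

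Gene lists were then read on X, and 14 lists held X-linked members. A gene was counted as having a peak only if one was assigned to it through its promoter window. Peaks elsewhere in or near a gene were not counted. Of the 14 X-linked body wall muscle genes, 3 had a peak, against 5 of 41 autosomal ones. They were the actin gene act-4 (60.8, 177 bp downstream of the start, in an intron; ranks 1424 and 4297), the troponin I gene unc-27 (55.6, 258 bp upstream; ranks 1274 and 2156) and the troponin T gene mup-2 (50.6, 406 bp upstream; ranks 1409 and 2060). All 3 were weak, below the X median of 75.9. Of the 23 nuclear hormone receptor genes on X, nhr-3 (64.1, ranks 702 and 8791) and nhr-1 (63.3, ranks 1037 and 1423) had a peak. On the autosomes 5 of 246 did. Introns of nhr-27 (81.8) and nhr-40 (50.03) held peaks that were not assigned to these genes. Of the 18 X-linked ceh homeobox genes, 1 had a peak, the POU gene ceh-18 (63.5), against 2 of 45. Of 2 ribosomal protein genes on X, rpl-11.2 had a peak and rpl-25.1 did not, and 31 of 75 did on the autosomes.

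Among the 34 X-linked neuropeptide genes ins-39 had a peak, against 0 of 106 on the autosomes. Among 36 X-linked members of chemoreceptor families srd-43 did (60.6), against 3 of 1243. The 6 acr acetylcholine receptor genes and the 6 ventral cord motor neuron genes on X had 0, as did the 15 and 31 autosomal ones. The 5 pan-neuronal genes on X had 0, against 3 of 28 on the autosomes. Assigned peaks were at 0 of 8 vulval and ventral epidermal genes on X and 0 of 31 on the autosomes. Among these 8, lin-2 held the intron peak described above, which was not assigned to it. Assigned peaks were at 0 of 5 X-linked genes of the Wnt pathway and Q neuroblast migration (bar-1, lin-18, mig-13, mig-15 and vang-1) and at 3 of 36 autosomal ones. Some lists share members: bar-1 and lin-18 are also vulval list members, and acr-2 and acr-12 are in both the acr and motor neuron lists. For bar-1, a beta-catenin gene, the nearest summit was 11166 bp away, and for mig-13, which acts in Q neuroblast migration, 2345 bp. The 27 collagen genes on X had 0, against 4 of 129, and the 8 intestinal genes had 0, against 0 of 19. The 6 X-linked genes of dosage compensation and sex determination, which were ceh-39, fox-1, sdc-1, sdc-2, sex-1 and xol-1, had 0, as did the 20 autosomal ones. With 0 to 3 genes with a peak per list, these counts are too small to set against the 3.84% of all X-linked genes, and no list was tested.

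X peaks were more often near the start of a noncoding gene. A noncoding gene start lay within 500 bp of 72 X summits (30.4%) and 269 autosomal summits (21.5%), a difference of 8.88 points (two-sided Fisher's exact test, adjusted p = 0.0081). The 5 autosomes ranged from 17.6 to 28.3%, so the highest of them was close to X. Zones of 500 bp around such starts cover 12.5% of X and 11.4% of the autosomes. The difference was 2.74 points and missed the threshold among the peaks above the median signal (Fisher's exact test, adjusted p = 0.635). Outside promoter windows the shares were 33.6% and 32.5% (Fisher's exact test, adjusted p = 0.824), and inside them 26.6% and 17.9% (adjusted p = 0.0745), in alternatives chosen after seeing the data.

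The kinds of noncoding gene differed in number. Of the 72 X peaks, 52 were nearest to a gene of the unclassified ncRNA biotype, 14 to a tRNA gene and the other 6 to lincRNA, snoRNA, piRNA, miRNA or antisense RNA genes. On the autosomes 143 of the 269 were nearest to ncRNA, 50 to snoRNA, 34 to piRNA, 18 to snRNA and 10 to tRNA genes. Of the 276 tRNA genes on X, 29 (10.5%) had a summit within 500 bp, against 12 of 336 (3.57%) on the autosomes. The order was the other way for snoRNA genes, with 1 of 33 on X and 53 of 313 on the autosomes. Several genes can share a peak, and these gene counts were not tested.

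The composite site of Hox and PBC proteins was more frequent at X summits. TGATNNAT, where N is any base, lay within 100 bp on either strand in 57 X peaks (24.1%, interval 18.8 to 30.01%) and 196 autosomal peaks (15.7%, interval 13.7 to 17.8%), a difference of 8.38 points (two-sided Fisher's exact test, adjusted p = 0.00589). The 5 autosomes ranged from 12.4 to 19.6%. It was in 15.8% of all 201-bp windows of X and 15.3% of those of the autosomes, and in 16.5% of windows 1000 bp beside the X summits. The call was not kept within place. Inside promoter windows the shares were 20.2% on X and 12.8% on the autosomes (Fisher's exact test, adjusted p = 0.0764), and outside them 27.3% and 24.4% (adjusted p = 0.656), a split also chosen after seeing the data. It was also lost among the peaks above the median signal (5.87 points, Fisher's exact test, adjusted p = 0.271) and with 200 bp on each side (2.81 points, adjusted p = 0.526). The same letters rearranged, TAGTNNAT, lay near 8.44% of X summits and 5.20% of autosomal ones (Fisher's exact test, adjusted p = 0.130). In windows 1000 bp beside the summits its shares were 10.5% and 7.23%. The homeodomain core TAATTA lay near 9.28% and 7.51% of summits, against 12.7% and 8.47% of the windows beside them.

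Some of the strongest X peaks hold the site, and 4 are shown because they show it beside or without the GC-rich core. The site is in capitals, and sequences run 5′ to 3′ on the strand that carries it. In the peak ranked 2 it lies between the 2 matches to the core. The peak ranked 55 is that in the sir-2.2 intron, where the site lies at the summit.
peak ranked 2, chrX:11094160-11094191, minus strand: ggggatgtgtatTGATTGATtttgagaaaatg
peak ranked 11, chrX:16682193-16682224, plus strand: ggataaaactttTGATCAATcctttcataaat
peak ranked 25, chrX:11937477-11937508, minus strand: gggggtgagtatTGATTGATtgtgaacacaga
peak ranked 55, chrX:13329095-13329126, minus strand: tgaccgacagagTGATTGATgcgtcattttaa
A match is a description of letters and does not show that the site was bound.

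The GA repeat GAGAGAGA, a common element of C. elegans promoters, lay within 100 bp of 18 X summits (7.59%) and 129 autosomal ones (10.3%), on either strand. The difference did not pass the threshold (two-sided Fisher's exact test, adjusted p = 0.343). With 50 bp on each side it did, at 2.53% and 6.24% (Fisher's exact test, adjusted p = 0.0358), and outside promoter windows it did too, at 9.38% and 19.3% (adjusted p = 0.0181, in an alternative chosen after seeing the data). Of all 201-bp windows, 1.12% on X and 1.36% on the autosomes held the repeat. X summits were GC-richer than their surroundings, with a median of 42.8% within 100 bp of the summit and 34.8% in windows 1000 bp away, against 39.8% and 36.3% on the autosomes.

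Peaks were spread over the length of X and were thinnest in its middle. Of 3 equal segments, the central one held 62 X peaks (26.2%), against 499 autosomal peaks (39.9%) in the central segments of their own chromosomes, a difference of -13.7 points (two-sided Fisher's exact test, adjusted p = 0.000165). The 5 autosomes ranged from 35.2 to 48.1%. The central segments held 35.7% of the gene starts of X and 38.1% of those of the autosomes. Among the peaks above the median signal the difference was -8.05 points and missed the threshold (Fisher's exact test, adjusted p = 0.227). In 10 equal bins, X peaks numbered from 15 in bin 6 to 35 in bin 8, with 33 in bin 3, while gene starts numbered from 199 in bin 10 to 327 in bin 7. The peaks with the core were in 9 of the 10 bins, 1 or 2 in each, with 0 in bin 6. The longest stretch without an optimal peak ran for 374217 bp in the middle, from the summit at 9091666 to that at 9465883 near ZK899.6.

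**Figure D5:**
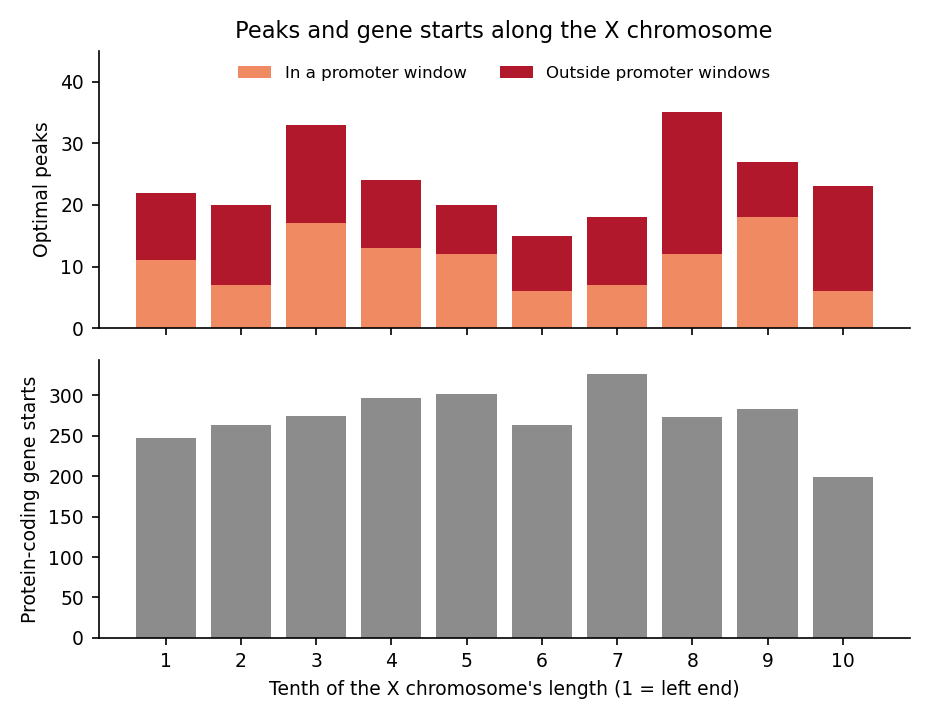
Number of optimal peaks (top, orange in a promoter window and red outside) and of protein-coding gene starts (bottom) in 10 equal bins along X, from the left end. Peaks number 15 in bin 6 and 18 in bin 7, and 35 in bin 8 and 33 in bin 3; gene starts number 199 to 327.

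Spacing between neighbouring peaks was similar on X and the autosomes, and was not tested. The nearest other peak was a median of 17269 bp away on X and 17312 bp on the autosomes, and 54 X peaks (22.8%) had another within 5000 bp, against 23.7%. There were 6 runs of 3 or more X peaks with gaps of at most 5000 bp. One run of 5 peaks lay around mdl-1, over 6261 bp, with signals from 81.3 to 177.4. Another of 5 peaks lay in introns of ZK470.2 and beside it, with signals from 51.7 to 70.5. Its intron summits were nearest to the start of ZK470.4. The summit outside the introns was nearest to nck-1, an SH2 and SH3 adaptor gene, 5128 bp from its start. The sma-9 run had 3 peaks of 94.6 to 166.7, and the runs near unc-27, near bcat-1, a branched-chain aminotransferase gene, and near pqn-39 had 3 each. Signals in the mdl-1 run all exceeded the X median of 75.9, whereas those in the ZK470.2 run were all below it.

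At the lower edge of the optimal set the values were continuous. The 3 weakest X peaks were those nearest let-2, a type IV collagen gene (signal 50.5), dot-1.4 (50.05) and T03G6.7 (50.03). The first 3 X regions outside the set, nearest lrch-1, shc-3 and acl-4, had 50.02, 49.98 and 49.96.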

How the data were processed

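Each region list is a headerless narrowPeak table derived by the authors from 1 or both replicates and a control, per the submitters' file notes. The aligner, peak caller and cutoff were not given in the sources used here. Control, alignment and signal track files were not analysed here. The deposited signal value is the authors' score of each region, without a stated scale. The deposited −log10 q was at its maximum (3.51) in all 1488 optimal peaks and ranked nothing. The deposited summit offset, in bp, placed the summit. Depth is unknown. The optimal peaks were the 1488 strongest of 30000 pooled regions. Peaks were matched to replicate regions by overlaps of at least 1 bp.

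Python 3.11.15 with numpy 2.4.6, pandas 2.3.3, scipy 1.17.1 and matplotlib 3.10.9 was used, on ce11 coordinates with the Ensembl 115 annotation. The 12 shares were compared by two-sided Fisher's exact tests with Benjamini-Hochberg adjustment over the 12 and a threshold of 0.05, tested on simulated data first. The alternatives included windows, distances, motifs, single replicates and the ce10 lists (1493 peaks, 239 on X). In the gene lists, 2 symbols (elt-5 and opt-2) had no match.

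The members and lists were chosen with earlier results of these data known. Named were the 15 strongest X peaks, the 20 genes with the strongest peaks, the 10 strongest peaks with the core, up to 4 members per list (members without a peak in lists of 12 or fewer), the 3 X regions on each side of the lower edge and the 5 with the most unequal ranks. The other 4 peaks with the core and other genes at introns, exons, runs of peaks and ftt-2 were added after their values were seen.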

Additional observations from a re-analysis of the deposited data

How the results depend on the processing

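Of 67 alternative values, 47 kept the direction and the side of the threshold, 10 fell short of it, 3 newly passed and 7 changed sign. Promoter windows, windows of more than 1 gene and GCGCAGGG passed under every alternative run except the rearranged word GGGACGCG, which stands in for the core as a control (-0.16 points). Values are X minus autosomes in percentage points, by Fisher's exact test. Among the peaks above the median signal, where fewer peaks were tested, introns gave -2.31, overlap with both replicates 1.56, noncoding starts 2.74, the central segment -8.05 and TGATNNAT 5.87. Counting genes of every biotype gave -6.07 for intergenic sequence, and a 50% overlap gave 3.21 for both replicates. TGATNNAT gave 2.81 within 200 bp, and TAATTA (1.77) and the rearranged TAGTNNAT (3.24) missed the threshold. GAGAGAGA gave -3.70 within 50 bp, and the rearranged GGAAGAGA 2.95. In alternatives chosen after seeing the data, leaving out the peaks with the core gave -9.25 for the peaks above the median signal and -2.77 for the 149 strongest; this takes only strong X peaks and no autosomal peak away, so its direction is fixed by construction. In promoter windows alone, noncoding starts gave 8.73 and TGATNNAT 7.42; outside them these gave 1.12 and 2.91, and GAGAGAGA -9.92. The causes were not tested.

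With the strongest regions of 1 replicate, as many as the optimal peaks, in place of the optimal set, the differences ranged from -28.3 to -26.8 for promoter windows, -29.2 to -28.2 for windows of more than 1 gene, -13.0 to -9.58 for the central segment, 5.50 to 5.78 for GCGCAGGG, 7.57 to 8.32 for TGATNNAT, 8.59 to 10.4 for noncoding starts, 0.980 to 1.66 for introns, 2.07 to 2.58 for intergenic sequence and -3.89 to -3.04 for GAGAGAGA. No paired analysis was possible because there is 1 group. Differences within a list cannot be set against sequencing error, since depth is unknown.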

Other observations

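The exact core also lay in 9 X matches outside the optimal set that overlapped a region of the pooled list, at pooled ranks from 1628 to 29092. The strongest was 323 bp downstream of the start of egl-17, which encodes a fibroblast growth factor that attracts the migrating sex myoblasts. Its region ranked 1568 in replicate 1 and 5850 in replicate 2. The next, 1226 bp upstream of Y62H9A.9, ranked 1887 in the pooled list and had no region in replicate 2.

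Peak width differed at the very top. The median width was 340 bp on X and on the autosomes, and 340 bp was the widest autosomal peak. On X, 7 peaks were wider, up to 511 bp, and these were among the 20 strongest optimal peaks. Of these 7 peaks, those ranked 1, 2, 4, 14 and 20 held the core, and those ranked 3 and 6 did not.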
